A study of Mus musculus with 6 samples.

Results

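The genes described are 10 targets of FOXO transcription factors, Irs2, Pdk4, Klf15, Txnip, Cited2, Fbxo32, Pik3ip1, Bcl2l11, Tnfsf10 and Klf6, measured in mouse fallopian tube organoids. They were chosen as genes that FOXO factors induce when insulin or PI3-kinase signalling is low, and their probes were found by matching the RefSeq transcript of each array probe to these symbols. This gave 14 probes for the 10 genes, out of 34521 named probes for 23765 genes. Fallopian tube organoids are hollow epithelial structures grown in a matrix from oviduct cells. Total RNA from 6 cultures was hybridised to 6 single-colour Agilent arrays, 1 for each of 6 groups. As control served organoids of Trp53flox/flox mice with the empty vector pLKO.1. Another culture had Trp53 loss, that is, it had lost the tumour suppressor p53. The Pik3ca/Trp53 culture added Pik3caH1047R, an activated catalytic subunit of PI3-kinase, to Trp53 loss. The Apc/Trp53 culture added Apc580D, an allele of the Wnt pathway inhibitor Apc, to Trp53 loss. Both double mutants were also measured as organoids recovered from subcutaneous tumours, an adenocarcinoma for Pik3ca/Trp53 and a cyst for Apc/Trp53, and these are called tumour-derived. A further pair named in the study's design was not analysed here. All cultures were grown from transduced organoids in serum-free Advanced DMEM/F-12, a base medium that itself contains insulin, with CHIR-99021, Jagged-1, R-spondin1, Noggin, EGF and Y27632. The sources used here do not say whether a culture was clonal or pooled, nor which host carried the tumours.

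FOXO factors are transcription factors held in check by growth factors. Insulin, IGF or EGF receptors activate PI3-kinase, its lipid product recruits the kinase AKT, and AKT phosphorylates FOXO proteins so that they bind 14-3-3 proteins and leave the nucleus. When the pathway is quiet, FOXO proteins stay in the nucleus and induce genes of nutrient use, cell death, protein breakdown and the insulin pathway itself. An activated PI3-kinase would by this textbook scheme lower such genes, and the 10 targets are therefore a readout of the pathway at the RNA level. Most of them also answer to other signals: Tnfsf10 to interferon, Klf6 to serum and stress, Klf15 and Pdk4 to glucocorticoids, Pdk4 to fatty acids through PPAR factors, Txnip to glucose and Cited2 to hypoxia.

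FOXO proteins bind the letters GTAAACA, and the related letters CAAAACA form the core of the insulin response element. Upstream sequences are shown for the 3 genes with either motif close to a start site, since these are the places where a direct FOXO site could be read. Each is the 250 bases before a RefSeq transcription start on GRCm38.p6, written 5′ to 3′ on the gene's strand, with motifs in capitals. In Irs2 the capitals mark an E-box, CACGTG, and after a single base TGTTTTG, which is CAAAACA on the other strand. In Txnip and Bcl2l11 they mark GTAAACA.
Irs2 (chr8:11008930-11009179, minus strand): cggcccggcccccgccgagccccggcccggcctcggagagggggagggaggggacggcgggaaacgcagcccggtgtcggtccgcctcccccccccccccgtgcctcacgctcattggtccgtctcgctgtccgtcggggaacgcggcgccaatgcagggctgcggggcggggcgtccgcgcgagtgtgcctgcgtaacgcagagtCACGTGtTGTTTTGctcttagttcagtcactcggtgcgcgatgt
Txnip (chr3:96557707-96557956, plus strand): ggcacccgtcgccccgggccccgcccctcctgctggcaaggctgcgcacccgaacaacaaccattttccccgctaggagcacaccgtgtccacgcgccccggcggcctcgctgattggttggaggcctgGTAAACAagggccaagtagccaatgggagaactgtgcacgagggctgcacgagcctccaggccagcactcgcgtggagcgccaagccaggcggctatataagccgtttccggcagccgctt
Bcl2l11 (chr2:128125788-128126037, plus strand, the first of its start sites): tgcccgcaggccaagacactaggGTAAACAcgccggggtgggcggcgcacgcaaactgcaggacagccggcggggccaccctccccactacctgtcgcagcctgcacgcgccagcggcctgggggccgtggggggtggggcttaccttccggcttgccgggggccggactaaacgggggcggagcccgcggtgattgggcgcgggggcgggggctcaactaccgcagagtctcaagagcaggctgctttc
The Irs2 CAAAACA match began 37 bases before the start, the Txnip match 121 bases before and the Bcl2l11 match 227 bases before. Windows of 300 bases, 250 before and 50 after the start, were read on both strands for 10 start sites of 9 of the genes, and Fbxo32 had no window here. GTAAACA was in 2 of these 10 windows and in 3.65% of 32851 windows of the same length over all genes. CAAAACA was in 1 of 10 and in 6.28% of all windows. The E-box CACGTG, which many factors bind, was in 4 of 10 (Irs2, Klf15, Cited2 and Klf6) against 7.15% of all windows. The core of the interferon response element, GAAA repeated after any 2 bases, was in 0 of 10 windows and in 3.44% of all. A match is a description of letters and does not show binding.

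Levels are log2 of the background-subtracted signal minus the array's 75th percentile, so a level of 0 equals that percentile and 1 unit is a factor of 2. Between 45.4% and 51.0% of probes were well above background on an array, the Pik3ca/Trp53 array having the lowest share, and no spot was saturated. Copies of the same probe on an array differed by a median SD of 0.0393 to 0.0836, the latter on the Pik3ca/Trp53 array. Different probes of the same gene differed by a median SD of 0.128 to 0.217 in the 8 comparisons made. With 1 array per group no difference between cultures has a replicate check. These technical spreads hold no variation between cultures, labellings or hybridisations, so they are not the error of a difference between cultures. All arrays were on 1 slide, and both tumour-derived arrays were in row 2 while their source cultures were in row 1. Slide row and tumour passage cannot be told apart, nor row and Trp53 loss, since control was in row 2. Trp53 itself was at 0.88 in control and not well above background in Trp53 loss and Pik3ca/Trp53, but it was measurable in Apc/Trp53 (-3.59) and in the tumour-derived Pik3ca/Trp53 culture (-1.64). The place of its probe relative to the floxed exons is not given in the sources used here. All 5 epithelial markers (Epcam, Cdh1, Krt8, Krt18 and Krt19) and all 4 oviduct secretory markers (Pax8, Ovgp1, Krt7 and Msx1) were well above background on all 6 arrays. The cultures are bulk samples, so fewer cells of a type and less RNA per cell cannot be told apart.

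**Figure D1:**
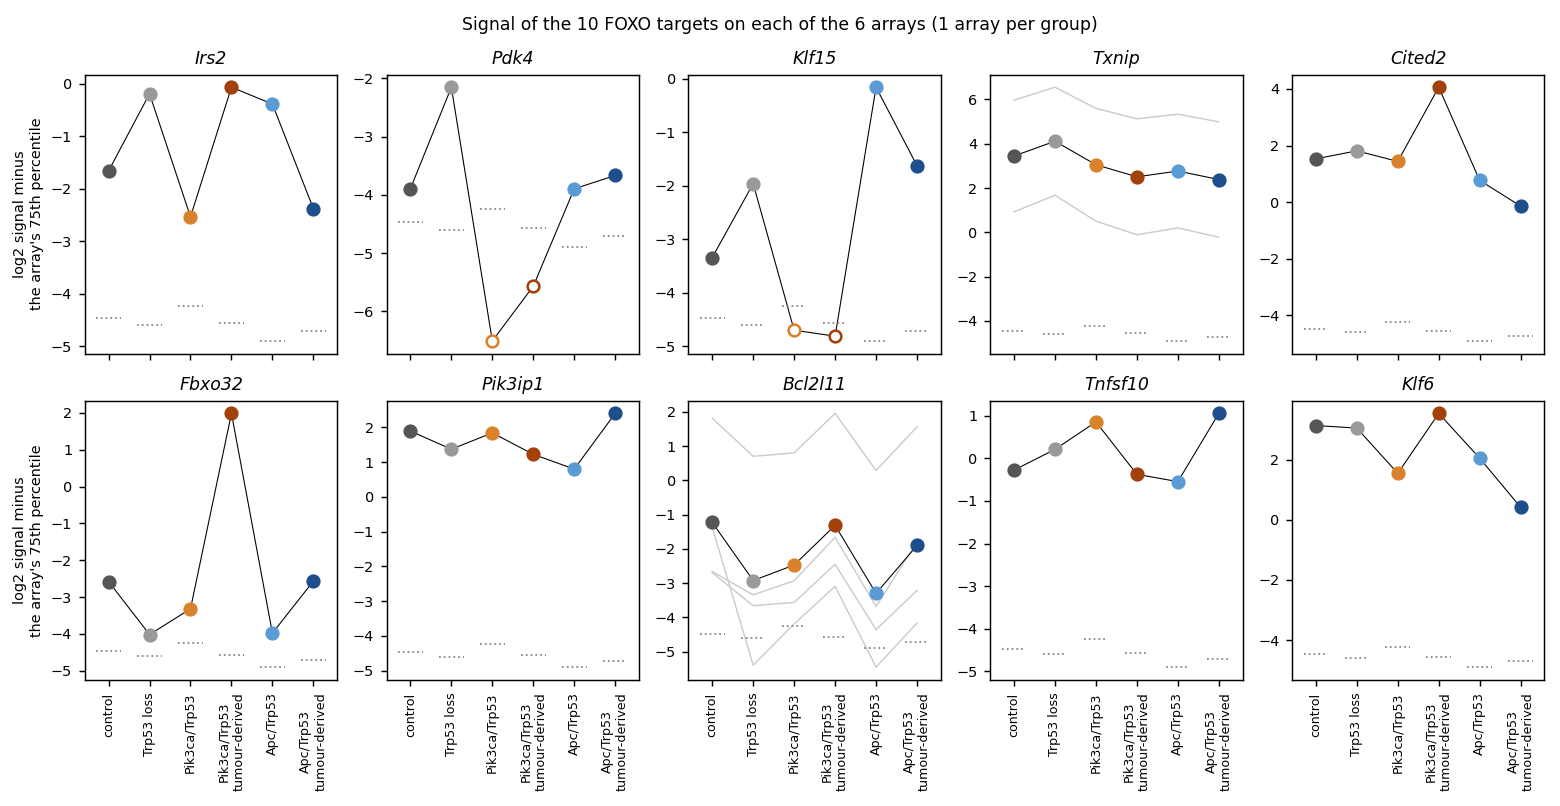
Level of each of the 10 genes (log2 signal minus the array's 75th percentile, y axis, scaled per gene) on the 6 arrays (x axis), 1 point per array. Open points are not well above background, dotted marks show each array's lowest level well above background, grey lines are single probes of genes with several, and lines only connect the same gene; Irs2 is lowest in Pik3ca/Trp53 and Pdk4 and Klf15 are dim there, whereas Fbxo32 is high in 1 culture alone.

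The set is labelled as targets lowered by PI3-kinase, and 5 of the 10 genes were lower in the matched comparison. Compared with Trp53 loss, Pik3ca/Trp53 had at least 2-fold lower signal of Irs2, Pdk4, Klf15, Txnip and Klf6 and at least 2-fold higher signal of 0 of 10. Over all 14234 genes measured in this comparison, 8.54% were at least 2-fold lower and 9.15% were at least 2-fold higher. The median log2 difference of the 10 genes was -0.72, and that of all genes was 0.01. The remaining targets lay between -0.37 (Cited2) and 0.70 (Fbxo32), with Tnfsf10 0.64, Pik3ip1 0.47 and Bcl2l11 0.20. Of the 5 lower genes Pdk4, Txnip and Klf6 were also at least 2-fold lower in Apc/Trp53. Among the 8 genes well above background on both arrays, 3 were 2-fold lower, beside 5.08% of all genes so filtered. Their median was -0.086, because Pdk4 and Klf15 were dim in Pik3ca/Trp53. Txnip stood just past 2-fold at -1.06 and was at -0.98 after median scaling, at -0.98 after the normexp background model and at -0.96 by its brighter probe. By the normexp model, which shrinks dim signals, the differences of Irs2, Pdk4 and Klf15 were -1.63, -1.20 and -1.04.

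Against the control culture 9 of the 10 genes were below 0 in Pik3ca/Trp53, where the median of all genes was just above 0 (0.02). Among the 9, Pik3ip1 (-0.05) and Cited2 (-0.09) lay within the median spread between probes of 0.17. Both were above 0 under median scaling. The gaps of Irs2, Pdk4 and Klf15 were smaller than those to Trp53 loss. By signals as measured Klf6, Pdk4, Klf15 and Bcl2l11 were past 2-fold lower and Tnfsf10 past 2-fold higher, 4 and 1 of 10 where 11.3% and 10.6% of all genes were lower and higher. Pdk4 and Klf15 were dim in Pik3ca/Trp53, and only gaps of at least 1.27-fold and at least 1.86-fold were measurable for them. Bcl2l11 had 1 probe dim there and was under 2-fold without it. The median of the set was -0.81 and that of all genes 0.02. Under median scaling the median of all genes was 0.29, that of the set -0.54, and the lower share of all calls was 35.8% in place of 51.6%. Under the normexp model 1 of 10 was still 2-fold lower (Klf6), where 4.5% of all genes were. Part of the gap to Trp53 loss was therefore a higher level in Trp53 loss than in control: Pdk4, Irs2 and Klf15 were 3.35-fold, 2.77-fold and 2.60-fold higher there. Fbxo32 was 2.71-fold and Bcl2l11, as measured, 3.24-fold lower in Trp53 loss. So 3 of 10 were higher and 2 of 10 lower, with 5.86% and 7.58% of all genes (7.60% and 5.96% after median scaling). Without its probe dim in Trp53 loss, Bcl2l11 was under 2-fold at -0.92, which left 1 of 10 lower (4.63% of all genes so filtered). The comparisons with Trp53 loss share that array, and so do not count as independent of each other. By the normexp model 1 of 10 was still higher (Irs2, 1.16) and 0 of 10 lower, with 1.87% and 2.72% of all genes.

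**Figure D2:**
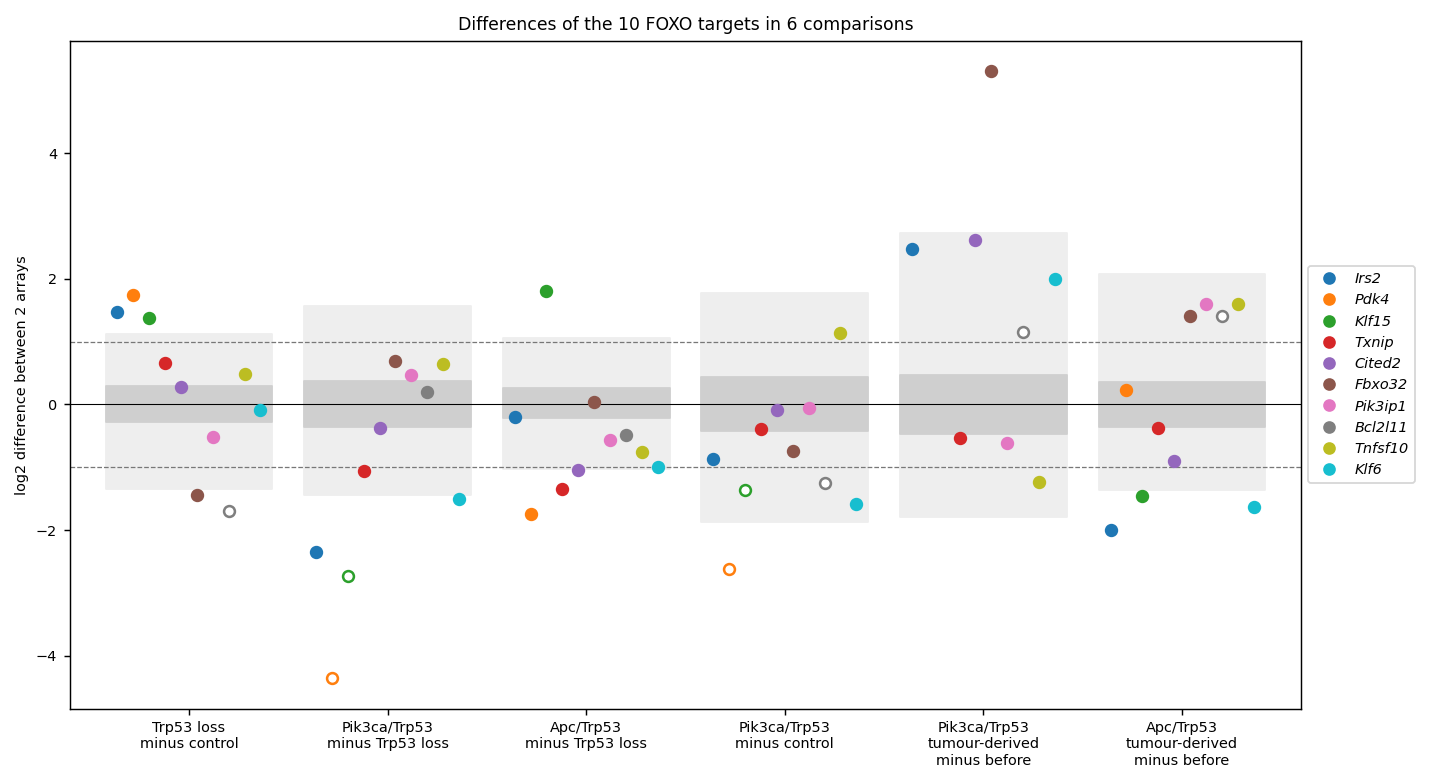
Log2 difference of each of the 10 genes (y axis) in 6 comparisons of 2 arrays (x axis). Dark and light grey boxes hold the central 50% and 90% of all genes, dashed lines mark 2-fold, and open points rest on a probe that was dim on 1 of the arrays; in Pik3ca/Trp53 minus Trp53 loss Irs2, Klf15, Pdk4 and Klf6 lie below the light box, and in the Pik3ca/Trp53 tumour-derived comparison Fbxo32 lies above it.

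Irs2 and Pik3ip1 act on the insulin pathway itself. Irs2 (chr8:10984681-11008929) encodes insulin receptor substrate 2, the adaptor that couples the receptor to PI3-kinase. Its level was -1.66 in control and -0.19 in Trp53 loss, -2.53 in Pik3ca/Trp53 against -0.38 in Apc/Trp53, and -0.06 and -2.38 in the respective tumour-derived cultures. The arrays fell into a higher level (Trp53 loss, Apc/Trp53 and tumour-derived Pik3ca/Trp53) and a lower one, with control between. Pik3ca/Trp53 was 5.08-fold below Trp53 loss, 4.44-fold below Apc/Trp53 and 1.83-fold below control. Its tumour-derived culture was 5.55-fold above it and within the spread between probes of the level in Trp53 loss. Pik3ip1 (chr11:3319241-3342971) encodes a membrane protein that binds and inhibits the PI3-kinase catalytic subunit. Its level was 1.90 in control and 1.37 in Trp53 loss, 1.85 in Pik3ca/Trp53 against 0.80 in Apc/Trp53, and 1.23 and 2.41 in the respective tumour-derived cultures. Its span over the arrays, 1.61, and that of Tnfsf10, 1.60, were the narrowest of the set. In Pik3ca/Trp53 before inoculation the Pik3ip1 signal differed by 0.47 from Trp53 loss and by -0.05 from control. On the other array with Pik3caH1047R, the tumour-derived culture, Pik3ip1 was below control, Trp53 loss and its source (-0.62). There it was also 2.27-fold below tumour-derived Apc/Trp53.

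Pdk4, Klf15 and Txnip govern fuel use. Pdk4 (chr6:5483351-5496278) encodes pyruvate dehydrogenase kinase 4, which blocks the entry of glucose carbon into the citric acid cycle. Its level was -3.89 in control, -2.15 in Trp53 loss, -3.90 in Apc/Trp53 and -3.67 in the tumour-derived Apc/Trp53 culture. In Pik3ca/Trp53 (-6.51) and its tumour-derived culture (-5.57) it was not well above background. It was dim on both arrays with Pik3caH1047R and measurable on the 4 without it, and unlike Irs2 it was still dim in the tumour-derived Pik3ca/Trp53 culture. Trp53 loss was at least 4.26-fold above Pik3ca/Trp53, whereas control and Apc/Trp53 were each at least 1.27-fold above it. These bounds are small because Pdk4 was close to the background limit of -4.90 to -4.24 in most cultures.

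Klf15 (chr6:90461043-90491803) encodes a zinc finger factor of amino acid and glucose metabolism. Its level was -3.34 in control, -1.96 in Trp53 loss, -0.16 in Apc/Trp53 and -1.62 in the tumour-derived Apc/Trp53 culture, and it was dim in Pik3ca/Trp53 (-4.70) and its tumour-derived culture (-4.81). Its pattern matched that of Pdk4 in being dim on both Pik3ca arrays, but its highest array was Apc/Trp53. There it was at least 16.9-fold above Pik3ca/Trp53 and 3.49-fold above Trp53 loss. Trp53 loss was in turn at least 4.85-fold above Pik3ca/Trp53. Between the tumour-derived cultures the gap was at least 7.67-fold for Klf15 and at least 1.86-fold for Pdk4.

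Txnip (chr3:96557957-96561857) encodes a protein that limits glucose uptake and binds thioredoxin. The mean of its 2 probes was 3.44 in control and 4.11 in Trp53 loss, 3.05 in Pik3ca/Trp53 against 2.77 in Apc/Trp53, and 2.51 and 2.38 in the respective tumour-derived cultures. All 4 double-mutant arrays were below control and Trp53 loss, and the 2 probes ran in parallel. Pik3ca/Trp53 was 2.09-fold and Apc/Trp53 2.54-fold below Trp53 loss, so the lower Txnip signal was shared with the genotype that lacks the PI3-kinase mutation. Arrdc4, a paralog of Txnip that also answers to glucose, was at 2.65 in Trp53 loss, 2.16 in Pik3ca/Trp53 and 1.65 in Apc/Trp53.

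Fbxo32 (chr15:58175879-58214892) encodes atrogin-1, the ubiquitin ligase of muscle wasting and a classic FOXO target. Its level was -2.58 in control and -4.02 in Trp53 loss, -3.32 in Pik3ca/Trp53 against -3.98 in Apc/Trp53, and 1.99 and -2.57 in the respective tumour-derived cultures. It was low on 5 arrays and high on 1. The tumour-derived Pik3ca/Trp53 culture was 39.6-fold above the culture before inoculation, and 156 of the 14713 genes compared there had a larger gain. Trim63, which encodes the partner ubiquitin ligase MuRF1, was at least 5.37-fold higher in that culture and dim on the source array. Of 7 skeletal muscle markers, 0 were well above background on that array and their summed level was -3.80, against -3.77 to -0.95 on the other 5, with Acta1, Myh4, Myh1, Actn3 and Myl1 at background on all 6.

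Bcl2l11 and Tnfsf10 promote cell death. Bcl2l11 (chr2:128126038-128162547) encodes BIM, a BH3-only activator of apoptosis. The mean of its 4 probes was -1.23 in control and -2.92 in Trp53 loss, -2.47 in Pik3ca/Trp53 against -3.30 in Apc/Trp53, and -1.31 and -1.90 in the respective tumour-derived cultures. The 3 Trp53-loss cultures before inoculation were below control and below both tumour-derived cultures. This is also the split by slide row: the 3 lower arrays were in row 1, and control and both tumour-derived arrays in row 2. Row and culture cannot be told apart for this pattern. The probes disagreed in size: 1 of them was at -1.37 in control and -5.39 in Trp53 loss, and without the probes dim on either array the difference was -0.92 in place of -1.70. The tumour-derived cultures were 2.23-fold as measured (Pik3ca/Trp53, with 1 probe dim in the source) and at least 2.40-fold (Apc/Trp53) above their sources. All 4 probes were higher in both pairs. Bcl2l11 and Fbxo32 were the 2 genes of the set that were 2-fold higher in both pairs. By the normexp model the Bcl2l11 differences were 0.63 and 0.64, and that of Fbxo32 in the Apc pair was 0.63, while median scaling put Bcl2l11 in the Pik3ca/Trp53 pair at 0.996.

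Tnfsf10 (chr3:27317077-27339665) encodes TRAIL, a ligand of death receptors. Its level was -0.28 in control and 0.21 in Trp53 loss, 0.86 in Pik3ca/Trp53 against -0.55 in Apc/Trp53, and -0.38 and 1.06 in the respective tumour-derived cultures. It was highest on the tumour-derived Apc/Trp53 and the Pik3ca/Trp53 arrays, and lowest in Apc/Trp53 and tumour-derived Pik3ca/Trp53, so the arrays with Pik3caH1047R went both ways. Pik3ca/Trp53 was 2.19-fold above control and 2.64-fold above Apc/Trp53. Of 13 measured interferon response genes, 11 were at least 2-fold higher in Pik3ca/Trp53 than in Trp53 loss (9.15% over all genes), led by Isg15 (16.0-fold), Ifit1 (11.1-fold) and Oas2 (10.6-fold), and 11 of 13 were higher in the tumour-derived Apc/Trp53 culture than in its source (11.3%). In the Pik3ca/Trp53 tumour-derived comparison, where Tnfsf10 was 2.35-fold lower, 1 of 13 was 2-fold lower and 1 higher (10.4% and 14.6%). The part of interferon signalling in the Tnfsf10 values was not tested.

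Cited2 and Klf6 encode transcriptional regulators. Cited2 (chr10:17723228-17725674) encodes a coactivator-binding protein that competes with HIF-1 for CBP and p300. Its level was 1.53 in control and 1.81 in Trp53 loss, 1.44 in Pik3ca/Trp53 against 0.77 in Apc/Trp53, and 4.06 and -0.14 in the respective tumour-derived cultures. It was near the same level in control, Trp53 loss and Pik3ca/Trp53, high on 1 array and low in both Apc cultures. The tumour-derived Pik3ca/Trp53 culture was 6.15-fold above its source and 18.3-fold above the tumour-derived Apc/Trp53 culture. Of 7 hypoxia genes, 1 was at least 2-fold higher in the former comparison (Car9; 14.6% over all genes) and 2 in the latter (Car9 and Egln3; 16.7%). In Apc/Trp53 against Trp53 loss, where Cited2 was 2.06-fold lower, 5 of the 7 were at least 2-fold lower (5.19% over all genes).

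Klf6 (chr13:5861489-5870393) encodes a zinc finger factor induced early by growth and injury signals. Its level was 3.14 in control and 3.06 in Trp53 loss, 1.55 in Pik3ca/Trp53 against 2.05 in Apc/Trp53, and 3.55 and 0.42 in the respective tumour-derived cultures. Pik3ca/Trp53 was 3.01-fold below control and 2.85-fold below Trp53 loss, so that its log2 difference was nearly the same against both reference cultures (-1.59 and -1.51). Its tumour-derived culture was 3.99-fold above it, at or above the level of control. Of 8 immediate early genes measured in Pik3ca/Trp53 against Trp53 loss, 7 were below 0 and 1 was at least 2-fold lower (Klf4, 2.92-fold; 8.54% over all genes). In the tumour-derived Pik3ca/Trp53 culture 6 of 10 were at least 2-fold higher than in its source (14.6% over all genes), and in the tumour-derived Apc/Trp53 culture 4 of 9 were lower (8.02%). The part of these signals in the Klf6 values was not tested.

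In Apc/Trp53, which has no mutation of PI3-kinase, several of the same targets were also lower than in Trp53 loss. Pdk4 was 3.35-fold, Txnip 2.54-fold, Cited2 2.06-fold and Klf6 2.005-fold lower, and Klf15 was 3.49-fold higher. These are 4 and 1 of 10, beside 5.19% lower and 5.43% higher of 14460 genes, with a median of -0.67 for the set and 0.03 for all genes. Cited2 and Klf6 lay at the threshold, so that 2 of 10 were lower after median scaling and 1 of 10 by the normexp model. Of all genes 4.77% and 1.75% were lower under these settings. Irs2 differed from Trp53 loss by -2.35 in Pik3ca/Trp53 and by -0.20 in Apc/Trp53, both read against the same array. In the direct comparison of Pik3ca/Trp53 with Apc/Trp53, Klf15, Irs2 and, as measured, Pdk4 (bound at least 1.27-fold) were past 2-fold lower and Tnfsf10 and Pik3ip1 (2.06-fold) higher, 3 and 2 of 10 with 7.33% and 7.67% of all genes. The median of the set there was 0.47, that is, on the higher side. With Pdk4 and Klf15 left out as dim, 1 of 8 was lower (4.17% of all genes so filtered) and the median was 0.66.

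After growth as a tumour 5 of 8 measured genes were higher in the Pik3ca/Trp53 pair, while Pdk4 and Klf15 were dim on both arrays. Fbxo32, Cited2, Irs2, Klf6 and Bcl2l11 were at least 2-fold higher and Tnfsf10 lower, and the median was 1.58. With no filter on dim probes the median of all 10 was 1.05, and that of all genes -0.27. Over all 14713 genes 14.6% were higher and 10.4% lower, with a median of -0.04 (-0.21 after median scaling). Txnip (-0.54) and Pik3ip1 (-0.62) were below 0. In the Apc/Trp53 pair Pik3ip1, Tnfsf10, Fbxo32 and Bcl2l11 were at least 2-fold higher and Irs2, Klf6 and Klf15 lower, 4 and 3 of 10. There 11.3% of 14876 genes were higher and 8.02% lower, and under median scaling 8.40% were higher and 13.8% lower. The median of the set was -0.08, or -0.41 under median scaling, where the median of all genes was -0.37. The pairs share no array. Irs2, Klf6 and Tnfsf10 were at least 2-fold apart in both pairs and in opposite directions. Between the tumour-derived cultures 4 of 10 were higher in Pik3ca/Trp53 (Fbxo32 23.5-fold, Cited2 18.3-fold, Klf6 8.74-fold and Irs2 4.98-fold) and 4 of 10 lower as measured (Klf15, Pdk4, Tnfsf10 2.70-fold and Pik3ip1 2.27-fold), where 16.7% and 15.9% of all genes were.

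**Figure D3:**
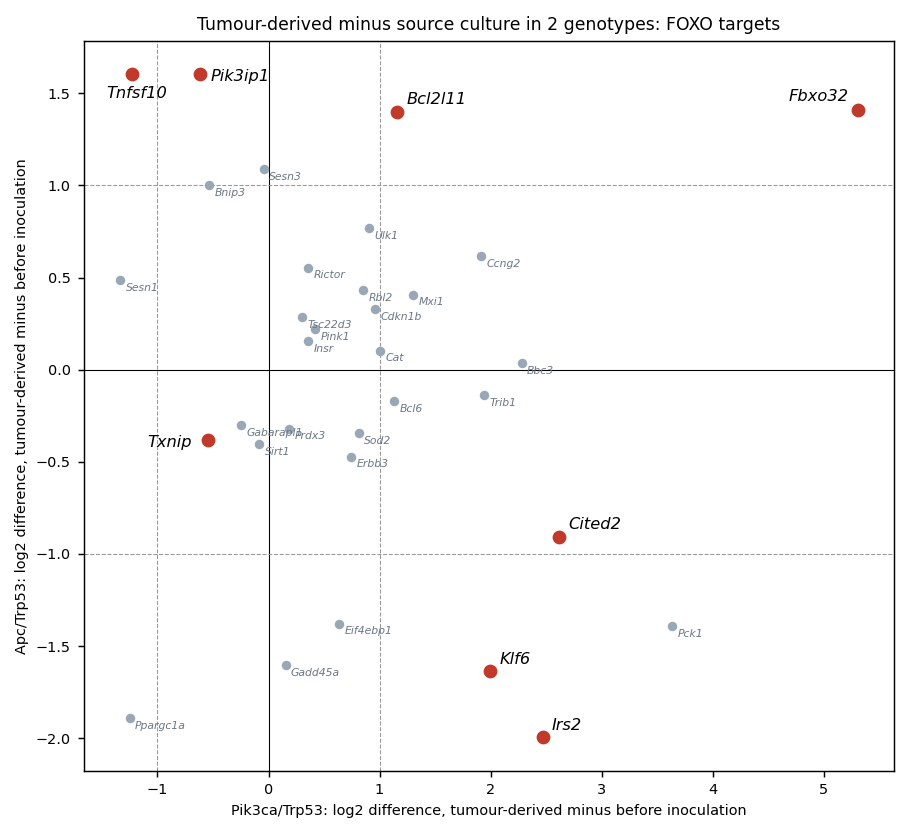
Log2 difference between tumour-derived organoids and their source culture in Pik3ca/Trp53 (x axis) and Apc/Trp53 (y axis) for 8 of the 10 genes (red) and for other FOXO targets (grey), signals as measured. Dashed lines mark 2-fold; Irs2 and Klf6 lie at the lower right, Tnfsf10 at the upper left, and Fbxo32 and Bcl2l11 are past 2-fold in both, while Pdk4 and Klf15 are missing because both Pik3ca arrays were dim.

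Markers of other cell types were read beside these values. Of 6 adipocyte markers, Fabp4 and Cidec were well above background in the tumour-derived Pik3ca/Trp53 culture, where the summed level was 1.38 against -2.28 to -1.83 on the other arrays, while Adipoq, Plin1 and Cfd were at background on all 6 arrays. Of 6 fibroblast markers, Col1a1, Col1a2 and Pdgfra were above background there, with a summed level of -1.78 against -3.86 to -3.32, and Col3a1, Dcn and Lum were at background on all 6. Pck1, a FOXO and PPAR target of fat and liver, was 12.4-fold higher in that culture than in its source. Msx1, an oviduct secretory marker, was at 3.99 in Pik3ca/Trp53 and at -3.98 in that culture, while Pax8, Ovgp1 and Krt7 were at -0.99, 2.45 and 5.34. In the tumour-derived Apc/Trp53 culture Ckm was 1 of 2 muscle markers above background. Of 6 leukocyte markers 3 or 4 were above background on each array, with Cd68, Cd3e and Csf1r above it on all 6. The summed levels, between 0.43 and 3.64, rested most of all on Cd68, which was at 3.57 in control and -0.56 in tumour-derived Apc/Trp53. Of the other markers, Ptprc was above background only in tumour-derived Apc/Trp53 (-3.12) and Lyz2 only in Pik3ca/Trp53 (-3.55), and Adgre1 was at background on all 6. Of 4 endothelial markers 1 to 3 were above background on each array. Cdh5 was at -0.38 in Apc/Trp53 against -2.80 to -2.02 elsewhere. Kdr was at -2.91 in Trp53 loss, dim on both Pik3ca arrays, and at 0.18 and 0.69 before and after tumour growth in the Apc pair, and Tek was at background on all 6. The part of such cells or of the Msx1 difference in the values of Fbxo32, Cited2, Irs2, Klf6 and the other targets was not tested. Of 6 multiciliated cell markers, 5 were above background in control, 4 in Trp53 loss and 2 in Pik3ca/Trp53, with summed levels of 1.83, -0.62 and -1.87, and their part in the values of the 10 genes was not tested.

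**Figure D4:**
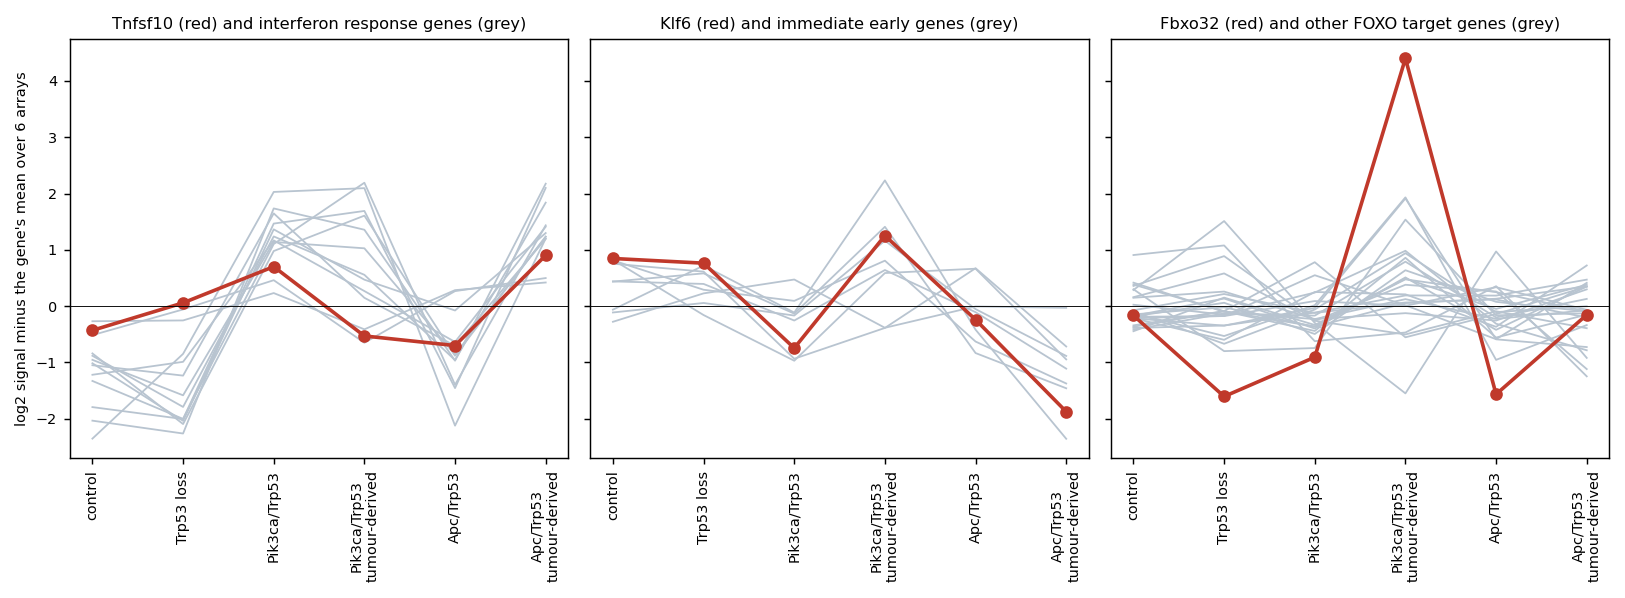
Level on each array minus the gene's mean over the 6 arrays (y axis, log2 units) for Tnfsf10 with interferon response genes, Klf6 with immediate early genes and Fbxo32 with other FOXO targets, the gene of the set in red and list genes well above background on all 6 arrays in grey. Lines only connect the same gene; Tnfsf10 and the interferon genes are both high in Pik3ca/Trp53 and in tumour-derived Apc/Trp53, but in tumour-derived Pik3ca/Trp53 Tnfsf10 is below its mean.

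A wider list of 28 FOXO targets, none of them among the 10, was read in the same way. Of 26 measured, 4 were at least 2-fold lower in Pik3ca/Trp53 than in Trp53 loss and 0 were higher (8.54% and 9.15% over all genes), with a median of -0.30. They were Igfbp1, a secreted binder of IGFs (at least 6.002-fold), Ppargc1a, a coactivator of mitochondrial genes (3.50-fold), Gadd45a, a DNA damage response gene (3.25-fold), and Gabarapl1, an autophagy gene (-1.15 on the log2 scale). In Apc/Trp53 against Trp53 loss 0 of 26 were lower and 0 higher (5.19% and 5.43%), and the median was -0.08. Against control, 2 of 25 were lower and 2 higher in Pik3ca/Trp53 (11.3% and 10.6%), with a median of 0.00. Igfbp1 was also at least 7.04-fold higher in Trp53 loss than in control, as Irs2, Pdk4 and Klf15 were. In the tumour-derived Pik3ca/Trp53 culture 8 of 26 were higher than in the source and 2 lower (14.6% and 10.4% over all genes), with a median of 0.69. In the Apc/Trp53 pair 2 were higher and 4 lower (11.3% and 8.02%), with a median of 0.07.

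The genes that carry the signal from receptor to FOXO were mostly within 2-fold. Of 29 measured, Pik3r3, a regulatory subunit of PI3-kinase, was 3.44-fold higher in Pik3ca/Trp53 than in Trp53 loss, and Igf1r, the IGF-1 receptor (2.24-fold), and Inpp5d, a lipid phosphatase (at least 1.85-fold), were lower. Foxo1 stayed between 2.35 and 2.74 on the 6 arrays, a span of 0.39, so the FOXO1 transcript differed less than any of the 10 targets. Foxo3 lay between -4.17 and -3.38, near background. Sgk1, a kinase that also phosphorylates FOXO proteins, was at -0.30 in Pik3ca/Trp53 against Trp53 loss and 1.75 in the tumour-derived Pik3ca/Trp53 culture against its source. RNA levels say nothing of the phosphorylation or location of FOXO proteins, which these arrays do not measure.

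Lists of the other inducers were compared with the metabolic targets. Hsd11b1, the enzyme that regenerates active glucocorticoid, was at least 27.8-fold lower and Nr3c1, the glucocorticoid receptor, 2.01-fold lower in Pik3ca/Trp53 than in Trp53 loss, 2 of 7 measured genes of the glucocorticoid list (8.54% over all genes), beside the lower Klf15 and Pdk4. Klf9 (-0.78) was within 2-fold and Tsc22d3, a standard glucocorticoid target, was at 0.23. In the tumour-derived Pik3ca/Trp53 culture Hsd11b1 was at least 48.3-fold above its source, while Klf15 and Pdk4 were dim on both arrays. Of 7 measured genes of the PPAR list, Plin2, a lipid droplet protein (2.72-fold), and Ppara (at least 1.71-fold) were lower in Pik3ca/Trp53 than in Trp53 loss (8.54% over all genes), and Angptl4, a PPAR target, was at 0.43. The part of these signals in the Klf15 and Pdk4 values was not tested.

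A limma fit over all 6 arrays modelled each gene as the sum of effects of Trp53 loss, Pik3ca, Apc and tumour derivation, which leaves 1 residual degree of freedom, the difference between the pairs in the tumour effect. It called 0 of 14502 genes at an adjusted p under 0.05 for any of the 5 effects examined, but with 1 residual degree of freedom the design is too small for genes to pass this threshold, so the count does not show that genes did not differ. At an unadjusted p under 0.05 it had 363 genes for Pik3ca, 2.5% of all, with Pdk4 and Klf15 among the 10. Both were dim on 2 of 2 Pik3ca arrays, so the fit rests on background signal there and no effect size is given (limma, adjusted p = 1.00 for each). For Pik3ca against Apc 737 genes (5.08%) had an unadjusted p under 0.05, again with Pdk4 and Klf15 among the 10. Tumour derivation gave 539 such genes (3.72%), with Bcl2l11 at 1.28 and an SE of 0.28 (limma, adjusted p = 0.999), higher in 2 of 2 pairs. Trp53 loss and Apc gave 295 and 271 genes (2.03% and 1.87%), with 2 of the 10 in each. The residual SD was 2.23 for Irs2 and 1.95 for Fbxo32 but 0.08 for Txnip, so a common tumour effect fitted Txnip closely and Irs2 poorly. The fit cannot tell tumour derivation or Trp53 loss from slide row, for Bcl2l11 as for other genes.

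The genes whose levels followed these most closely over the 6 arrays were found by correlation, as a description. For Irs2 they were St3gal6, a sialyltransferase (r = 0.994), Ifrd1 (r = 0.962) and Uap1l1 (r = 0.961), out of 3714 genes above background on all arrays with an SD of at least 0.5. For Pdk4, out of 4958 genes above background on at least 3 arrays, they included Aif1l (r = 0.969) and Zmynd10, a gene of cilia (r = 0.963). For Txnip they were Bend4 (r = 0.966), Las1l (r = 0.961) and Usp3 (r = 0.959). With 6 arrays and so many genes compared, values of this size mark rank only.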

How the data were processed

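Per the labels, total RNA was extracted with the RNeasy Mini Kit and labelled for single-colour arrays. The deposited scanner files give for each spot an intensity, extracted per array and background-subtracted by the authors. Per the submitters' processing notes this was done in Agilent Feature Extraction 11.0.1.1. Their 75th percentiles differed between arrays. A deposited table of log2 values covers 2047 probes, 4 of them of the genes described. Its columns differed from each other as the log2 scanner signals did, apart from a constant. Its centring and probe choice are not stated, and its column medians were 0.03, -0.02, 0.15, -0.05, -0.32 and -0.20.

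The genes, lists and comparisons were chosen with earlier results of these data known. Outlier-flagged and control spots were left out, spots of a probe averaged, log2 taken and each array's 75th percentile over non-control spots subtracted. 34521 of 56537 probes present on all arrays were named through RefSeq (GRCm38.p6). A gene's value is the mean of its probes well above background in at least 1 of the compared cultures. Summed levels of marker lists instead use the mean of all probes of each gene, dim ones included. Counts use signals as measured. Folds given as "at least" raise a dim signal to its array's lowest signal that was well above background. A dim signal already above that level was kept as measured, as for Bcl2l11 in the Pik3ca/Trp53 pair. Named were all 10 genes, from each other list those with the 3 largest differences in Pik3ca/Trp53 minus Trp53 loss or any that share an inducer with a target, and the 3 genes most correlated with Irs2, Pdk4 and Txnip (1 of those for Pdk4 is not reported here); Trim63, Pck1, Arrdc4, Foxo1, Foxo3, Sgk1, Gabarapl1, Tsc22d3, Angptl4, Trp53 and the hypoxia genes were named after their values were seen. Upstream sequences are from RefSeq. There were 8 comparisons of 2 arrays, without tests, and 1 limma fit, checked on simulated data. Alternatives were median scaling, quantile normalization, a normexp background (offset 50, on the median signal, since the files hold no mean signal), other filters on dim probes, the brightest probe, a 1.5-fold threshold and the deposited log2 values. Tools were limma 3.58.1 and data.table (version 1.17.8) in R 4.3.3, and pandas 2.3.3, numpy 2.4.6 and matplotlib 3.10.9 in Python 3.11.15.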

Additional observations from a re-analysis of the deposited data

Results flagged for a closer look

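In 3 genes the tumour-derived cultures of the genotypes moved in opposite directions against their sources, each by at least 2-fold and with 1 array per culture, so the difference was not tested. For Irs2 the log2 difference was 2.47 in Pik3ca/Trp53 and -1.995 in Apc/Trp53. For Klf6 it was 1.998 and -1.63. For Tnfsf10 it was -1.23 and 1.60.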

How the results depend on the processing

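Of 46 differences of at least 2-fold in the 10 genes, none changed direction under any alternative. 40 stayed past 2-fold with median scaling, 46 with quantile normalization, 27 with the normexp background and 45 with the brightest probe. 36 of 38 measured stayed so with probes above background on both arrays, and 31 of 33 with probes above background on all 6 arrays. The authors' deposited log2 values cover 23 of the differences, and all 23 were past 2-fold there. Those values differ between arrays as the log2 scanner signals do, apart from a constant. That count could therefore hardly differ and is no independent check. With median scaling the median of the set became 0.57 in Trp53 loss minus control, -0.41 in the Apc/Trp53 tumour-derived comparison and -0.54 in Pik3ca/Trp53 minus control (-0.62 with quantile normalization), and 2 were lower in Apc/Trp53 minus Trp53 loss. The normexp background, whose offset of 50 shrinks differences of dim probes, left 0 lower and 1 higher in Trp53 loss minus control, 1 lower in Apc/Trp53 minus Trp53 loss, 0 lower and a median of 1.17 in the Pik3ca/Trp53 tumour-derived comparison, 2 higher in the Apc/Trp53 one, 1 lower and 0 higher with a median of -0.40 in Pik3ca/Trp53 minus control, and 1 higher with a median of 0.29 in Pik3ca/Trp53 minus Apc/Trp53. The shares of all genes fell under this background too. Over the 8 comparisons 1.75% to 7.28% were lower and 1.69% to 10.6% higher, in place of 5.19% to 15.9% and 5.43% to 16.7%. With probes above background on both arrays, 1 was lower in Trp53 loss minus control. Of all genes 3.35% to 10.6% were lower over the comparisons with these probes. Of 8 genes measured in the other comparisons under that filter, 3 were lower in Pik3ca/Trp53 minus Trp53 loss (median -0.086), 1 in Pik3ca/Trp53 minus control (-0.56), 1 in Pik3ca/Trp53 minus Apc/Trp53 (0.66) and 2 between the tumour-derived cultures (1.45). The filter on all 6 arrays gave the same counts and medians there, except a median of 1.37 between the tumour-derived cultures, and in Trp53 loss minus control 1 lower, 1 higher and a median of 0.10. It also left 0 higher in Apc/Trp53 minus Trp53 loss and a median of 0.51 in the Apc/Trp53 tumour-derived comparison. Of all genes 2.55% to 10.4% were lower and 2.54% to 11.7% higher under it. With no filter the Pik3ca/Trp53 tumour-derived median was 1.05 over all 10 genes. At 1.5-fold, 2 were higher in Pik3ca/Trp53 minus Trp53 loss, 2 lower in its tumour-derived comparison and 5 higher in Pik3ca/Trp53 minus Apc/Trp53. The shares of all genes were 16.9%, 20.6% and 14.3%. The limma fit called 0 genes at every setting, which says nothing about stability. No paired analysis was possible because groups share only 1 replicate number, and no replicate could be left out. The limma fit pairs cultures by genotype instead. On the 4 double-mutant arrays alone it called 0 genes for tumour derivation, with 539 at an unadjusted p under 0.05, as on all 6 arrays. Control and Trp53 loss are each fitted by a term of their own in the full fit. The refit therefore could not differ and is no check. All arrays share 1 slide, so no slide block was fitted. Pdk4 and Klf15 lie near background, so their folds are bounds.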
